A study of Homo sapiens with 18 samples.

Results

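The 2′-5′-oligoadenylate synthetase (OAS) genes OAS1, OAS2, OAS3 and OASL were followed in 3 human cancer cell lines in which a hairpin RNA against MUC1 can be switched on. They were chosen by their symbols and by the H1975 values, as the rows of the 3 deposited expression tables that carry these symbols, 4 of 26799 gene names in all, and each of the 4 was listed in every table. OAS1, OAS3 and OAS2 are neighbours on chromosome 12, and their lower TPM with doxycycline in H1975 was the reason for the choice, so the H1975 values of the 4 genes are a description without a test. The RKO and COLO 201 lines come from colon cancers and the H1975 line from a lung cancer, and each carries a tetracycline-regulated MUC1 short hairpin RNA and puromycin resistance. In each line 3 columns stand for cells given 500 ng/ml doxycycline, which turns the hairpin on, and 3 for cells given 0.1% DMSO as vehicle, all grown in medium with 10% serum. The labels give no clone and no length of treatment. No column with a control hairpin and doxycycline was used, so what the hairpin does and what the drug does cannot be told apart.

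OAS proteins sense double-stranded RNA. OAS1, OAS2 and OAS3 then join ATP into short 2′-5′-linked oligoadenylates (2-5A), a second messenger of the antiviral response that leads to the decay of viral and cellular RNA. OASL has no such synthetase activity. It carries ubiquitin-like domains and is known to enhance signalling by the RNA sensor RIG-I. All 4 genes are classic interferon-stimulated genes, which a complex that holds STAT2 and IRF9 switches on through interferon-stimulated response elements, and many cells keep a basal level of them without added interferon. MUC1 encodes a transmembrane mucin whose C-terminal subunit signals inside the cell.

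OAS1, OAS3 and OAS2 lie in this order on the plus strand of chromosome 12 (GRCh38, GENCODE release 29), at 112906777 to 112933222, 112938352 to 112973249 and 112978395 to 113011723. The gaps between them are 5129 and 5145 bases. OASL lies on the minus strand at 121019111 to 121039242, which is 8007387 bases beyond OAS2. An antisense gene, AC004551.1, covers 25595 bases of OAS1 and all of OAS3 and OAS2 on the opposite strand. The library kit keeps strand, but whether the counting used it is not given in the sources used here, so the share of reads from the antisense gene is uncertain. Promoters are shown for OAS1 and OAS3, the 2 of the 4 genes with an entry among the promoter sequences used. The windows run from 250 bases before to 50 bases after the RefSeq start (GRCh38.p14, plus strand, 5′ to 3′), at chr12:112906712-112907011 for OAS1 and chr12:112938224-112938523 for OAS3. Both RefSeq starts lie inside the GENCODE genes given above, and the positions below count from the RefSeq starts. Capitals mark pairs of GAAA separated by a short spacer, the core of an interferon-stimulated response element:
OAS1: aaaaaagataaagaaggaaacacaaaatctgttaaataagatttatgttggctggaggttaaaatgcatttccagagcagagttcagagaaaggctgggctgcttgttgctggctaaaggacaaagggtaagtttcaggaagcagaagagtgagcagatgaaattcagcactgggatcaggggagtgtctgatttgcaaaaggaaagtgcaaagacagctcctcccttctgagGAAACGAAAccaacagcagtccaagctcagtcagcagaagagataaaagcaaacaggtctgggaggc
OAS3: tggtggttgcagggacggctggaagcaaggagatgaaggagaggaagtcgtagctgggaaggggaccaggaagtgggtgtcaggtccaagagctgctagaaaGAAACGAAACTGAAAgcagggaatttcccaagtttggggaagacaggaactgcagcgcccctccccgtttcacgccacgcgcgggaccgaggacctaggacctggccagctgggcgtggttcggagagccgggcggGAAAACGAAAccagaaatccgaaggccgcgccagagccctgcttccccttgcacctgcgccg
OAS1 holds 1 match to GAAANGAAA, which begins 17 bases before the start. OAS3 holds 2 pairs of GAAA with 2 bases of any kind between them, which begin 143 and 12 bases before the start, and 1 match to GAAANGAAA, which begins 148 bases before it and overlaps the first. The palindrome TTCNNNGAA, the form of a STAT site, has 1 match in OAS1, 168 bases before the start, and 0 in OAS3. Both strands were searched. Of 35116 promoters of the same length, 3.57% held the pair with 2 bases between, 3.12% held GAAANGAAA, 6.40% held either and 7.66% held TTCNNNGAA. Of 43 other interferon-stimulated genes with an entry, 38 (88.4%) held either spacing of the GAAA pair in any of their entries. That share counts genes, while the shares before it count promoters, so they are not on the same unit. The spacing of a single base was added after the sequences had been seen. A match is a run of letters and not a measured binding site. OAS2 and OASL had no entry.

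The values are TPM, transcript abundances that are scaled for gene length and add up to 1000000 in each column, and 14687 to 16935 genes were above 0 per column. TPM keep no read totals, so the depth behind each value is unknown. MUC1, the target of the hairpin, averaged 8.01 ± 1.35 TPM with doxycycline and 97.5 ± 9.98 TPM with vehicle in H1975, and 1.78 ± 0.250 TPM with doxycycline and 13.9 ± 0.940 TPM with vehicle in COLO 201 (SD, n = 3 each). In RKO it was 0.108, 0.105 and 0.204 TPM with doxycycline and 15.2, 1.24 and 1.03 TPM with vehicle, and the arms did not overlap in any line (exact two-sided permutation p = 0.1 in each, the smallest that 3 against 3 columns can give). RKO vehicle column 1 stood apart from the other 5 RKO columns. Of 11031 genes at 1 TPM or more in it, 706 (6.40%) were over 5 times the highest of the other columns, and 3 of the 4 OAS genes and 11 of 40 other interferon-stimulated genes were among these. That column also held 361.2 TPM of VIM and 111.1 TPM of CAV1, while no other RKO column exceeded 2.46 TPM of VIM or 5.69 TPM of CAV1. Among 14 fibroblast and endothelial markers the sum was 2.50 to 3.80 TPM with doxycycline and 7.12 to 711.7 TPM with vehicle in RKO, with CDH5 at 0 in every column. The RKO results below are therefore also given without this column. In H1975 and in COLO 201, 13 of these 14 markers were listed. Their sum in H1975 was 779.1 to 878.4 TPM with doxycycline and 952.9 to 1071 TPM with vehicle. VIM and CAV1 carried it there, and DCN and THY1 were at 0. In COLO 201 the sum was 12.8 to 14.2 TPM with doxycycline and 32.7 to 35.7 TPM with vehicle, mostly from CAV1. All 8 epithelial markers averaged at least 1 TPM in H1975 and COLO 201, but only 3 of 8 did in RKO, where GRHL2 was at 0. Among 9 leukocyte markers the sum was 391.7 to 489.4 TPM with doxycycline and 121.4 to 262.5 TPM with vehicle in RKO, 692.9 to 741.9 TPM with doxycycline and 1282 to 1290.4 TPM with vehicle in COLO 201, and 292.4 to 347.7 TPM with doxycycline and 161.6 to 172.6 TPM with vehicle in H1975. CD68, a lysosomal protein, carried it in RKO and H1975 and LYZ, the enzyme lysozyme, carried most of it in COLO 201. CD68 rose in every line (1.21 in RKO, 0.70 in COLO 201 and 0.92 in H1975), CD79A rose in H1975 (1.96) and LYZ fell in COLO 201 (-0.997), each past the limma test. HBB was at 0 in every column of the 3 lines, CD3E in RKO and H1975, and NKG7 in RKO. The part of other cells or of the outlying column in the results was not tested.

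In H1975 all 4 OAS genes were lower with doxycycline than with vehicle, by most for OAS2 and OAS1 and by least for OASL. OAS1 had 9.79, 10.9 and 9.37 TPM with doxycycline and 36.9, 37.3 and 36.8 TPM with vehicle. The 3 vehicle columns lay within 1 TPM of each other, and every doxycycline column lay far below them. OAS2 had 5.74, 5.93 and 4.76 TPM with doxycycline and 22.2, 24.9 and 21.5 TPM with vehicle. OAS3, the longest of the enzymes, had 20.9, 22.5 and 21.2 TPM with doxycycline and 55.5, 57.8 and 55.7 TPM with vehicle. OASL had 15.9, 14.2 and 12.5 TPM with doxycycline and 24.8, 27.1 and 25.2 TPM with vehicle. The arms did not overlap for any of the 4, and the doxycycline mean was 24.0% of the vehicle mean for OAS2, 27.1% for OAS1, 38.2% for OAS3 and 55.3% for OASL. On the log2(TPM + 1) scale, which understates the change of low genes, the differences were -1.88 ± 0.09 for OAS2, -1.79 ± 0.07 for OAS1, -1.35 ± 0.07 for OAS3 and -0.82 ± 0.09 for OASL (SE). Of the 12359 genes tested in H1975, 18.4% were lower with no overlap of the arms. This is the contrast that chose the genes. In bulk RNA, fewer cells that express a gene and less RNA per cell cannot be told apart. The summed level of the 4 genes was 47.8 to 53.5 TPM with doxycycline and 139.1 to 147.1 TPM with vehicle.

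**Figure D1:**
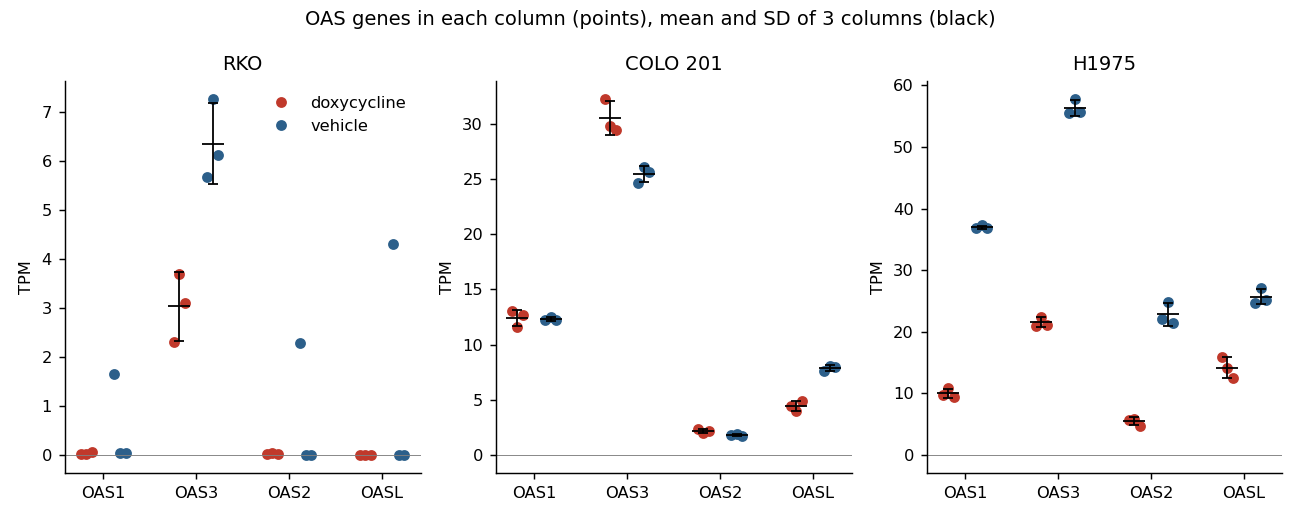
TPM of OAS1, OAS2, OAS3 and OASL in every column of RKO, COLO 201 and H1975 (points, doxycycline left of vehicle), with the mean and SD of 3 columns in black, drawn for OAS3 alone in RKO. In H1975 the vehicle points lie above the doxycycline points for all 4 genes, in COLO 201 OASL is lower and OAS3 higher with doxycycline, and in RKO OAS1, OAS2 and OASL are above 1 TPM only in vehicle column 1.

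COLO 201 did not repeat this picture, and its 4 genes moved in different directions. OASL fell, OAS3 rose, and OAS1 and OAS2 did not pass the test. OASL had 4.43, 3.95 and 4.92 TPM with doxycycline and 7.62, 8.10 and 8.02 TPM with vehicle. Its arms did not overlap, as for 16.6% of genes tested in COLO 201 in this direction, the doxycycline mean was 56.0% of the vehicle mean, and the change was -0.72 ± 0.07 (SE; limma on log2(TPM + 1), Benjamini-Hochberg adjusted p = 4.3e-06). OAS3 had 32.3, 29.8 and 29.4 TPM with doxycycline and 24.6, 26.1 and 25.7 TPM with vehicle, again with no overlap, as for 48.5% of genes in this direction. It rose by 0.25 ± 0.05 (limma adjusted p = 8.2e-04). OAS1 had 13.1, 11.6 and 12.6 TPM with doxycycline and 12.2, 12.5 and 12.3 TPM with vehicle, so the vehicle columns lay inside the doxycycline range (0.01 ± 0.06, limma adjusted p = 0.89). OAS2 had 2.35, 1.98 and 2.15 TPM with doxycycline and 1.78, 1.93 and 1.72 TPM with vehicle (0.17 ± 0.08, limma adjusted p = 0.075). In COLO 201, 61.0% of 11566 genes passed the test in either direction, 15.0% lower and 45.9% higher, so a count of 2 of 4 OAS genes is not above the background. The median change over all tested genes was 0.12. When columns were rescaled so that this median lay near 0, the split of all genes became 28.4% lower and 28.8% higher, OAS3 rose by 0.13 (limma adjusted p = 0.020) and OASL changed by -0.82. The summed OAS level was 47.4 to 52.1 TPM with doxycycline and 46.3 to 48.6 TPM with vehicle, and these ranges overlapped.

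In RKO, OAS3 was the only OAS gene with a steady level, and it fell. It had 2.29, 3.70 and 3.11 TPM with doxycycline and 5.68, 7.26 and 6.11 TPM with vehicle. The arms did not overlap, as for 32.4% of genes tested in RKO in this direction, the doxycycline mean was 47.8% of the vehicle mean, and the change was -0.87 ± 0.19 (limma adjusted p = 0.0015). In RKO, 18.1% of 10551 genes passed the test, 16.1% lower and 2.09% higher, and the median change over all tested genes was -0.26. After rescaling, OAS3 changed by -0.65 (limma adjusted p = 0.0024), with 14.4% of genes lower and 13.5% higher. Without vehicle column 1 the OAS3 change was -0.94 (limma adjusted p = 1.1e-04; 18.2% of genes lower, 2.10% higher), and with rescaling as well it was -0.69 (limma adjusted p = 3.9e-06; 30.5% of genes lower, 28.3% higher). OAS1 had 0.0157, 0.0325 and 0.0615 TPM with doxycycline and 1.66, 0.0449 and 0.0420 TPM with vehicle. OAS2 had 0.0238, 0.0452 and 0.0187 TPM with doxycycline and 2.28, 0 and 0.00796 TPM with vehicle. OASL was listed at 0 in the 3 doxycycline columns and in vehicle columns 2 and 3, and at 4.30 TPM in vehicle column 1. These 3 genes reached 1 TPM in that single column, their means over 6 columns were 0.309, 0.396 and 0.717 TPM, under the minimum of 1 TPM for a test, and no fold is given.

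OAS3 thus moved in opposite directions in the colon lines. The COLO 201 change minus the RKO change was 1.13 ± 0.19 on the log2(TPM + 1) scale (joint limma fit over 9438 genes tested in both lines, adjusted p = 3.6e-04), where 35.9% of these genes passed in the same direction. It was 0.78 after rescaling and 1.19 without RKO vehicle column 1. The lines were sequenced into separate tables, so only the change within each table enters this test. H1975 was left out of it, since its change chose the genes. The tables still differ in scale. In RKO vehicle column 1, OAS3 had 5.68 TPM, and 20.5 when scaled to the genes shared by the tables. In COLO 201 vehicle column 1 these were 24.6 and 32.2. The minimum of 1 TPM and the 1 added before the log2 thus weigh differently in RKO. Scaled to shared genes, OAS3 changed by -0.76 in RKO (limma adjusted p = 0.0041) and 0.19 in COLO 201 (limma adjusted p = 0.0071). The joint test was not run on that scale.

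OAS3 had the highest level of the 4 genes in every line and arm. In H1975 with doxycycline it made up 42.1% ± 2.16 of the summed OAS TPM, followed by OASL at 27.7% ± 2.33, OAS1 at 19.5% ± 0.823 and OAS2 at 10.7% ± 0.617. With vehicle the shares were 39.7% ± 0.365 for OAS3, 26.1% ± 0.642 for OAS1, 18.1% ± 0.315 for OASL and 16.1% ± 0.768 for OAS2 (SD, n = 3 each). OASL and OAS1 changed places, and with vehicle the TPM ranges of OASL and OAS2 overlapped. In COLO 201 the order was OAS3, OAS1, OASL and OAS2 in both arms with no overlap between neighbours. There OAS3 had 61.6% ± 1.53 of the sum with doxycycline and 53.6% ± 0.290 with vehicle, and OASL had 8.95% ± 0.919 with doxycycline and 16.6% ± 0.186 with vehicle. In RKO with doxycycline OAS3 was 97.9% ± 0.413 of the sum. Among the genes above 0 in a column, OAS3 in H1975 stood at percentile 55.8 to 58.6 with doxycycline and 81.0 to 82.2 with vehicle. Its percentile was 70.7 to 71.7 with doxycycline and 68.0 to 69.2 with vehicle in COLO 201, and 47.8 to 50.3 with doxycycline and 61.8 to 62.6 with vehicle in RKO.

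Ratios within a column do not depend on how a column was scaled. In COLO 201 the log2 ratio of OASL to OAS3 was -2.86, -2.91 and -2.58 with doxycycline and -1.69, -1.69 and -1.68 with vehicle, a difference of -1.10 (exact two-sided permutation p = 0.1, the smallest possible). The OAS1 to OAS3 ratio averaged -1.29 ± 0.0689 with doxycycline and -1.04 ± 0.0298 with vehicle (exact p = 0.1), again without overlap. The OAS2 to OAS3 ratio was -3.82 ± 0.0776 with doxycycline and -3.81 ± 0.0720 with vehicle, with overlapping columns (exact p = 0.8). In H1975 the OASL to OAS3 ratio went the other way, at -0.40, -0.66 and -0.76 with doxycycline and -1.16, -1.09 and -1.14 with vehicle. Ratios to OAS3 were lower with doxycycline for OAS1 (-1.11 ± 0.0647 with doxycycline, -0.61 ± 0.0232 with vehicle) and OAS2 (-1.98 ± 0.151 with doxycycline, -1.30 ± 0.0816 with vehicle). The OAS2 to OAS1 ratio overlapped between arms (-0.87 ± 0.103 with doxycycline, -0.70 ± 0.103 with vehicle). A ratio shows unequal change of 2 genes, not which of them moved.

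**Figure D2:**
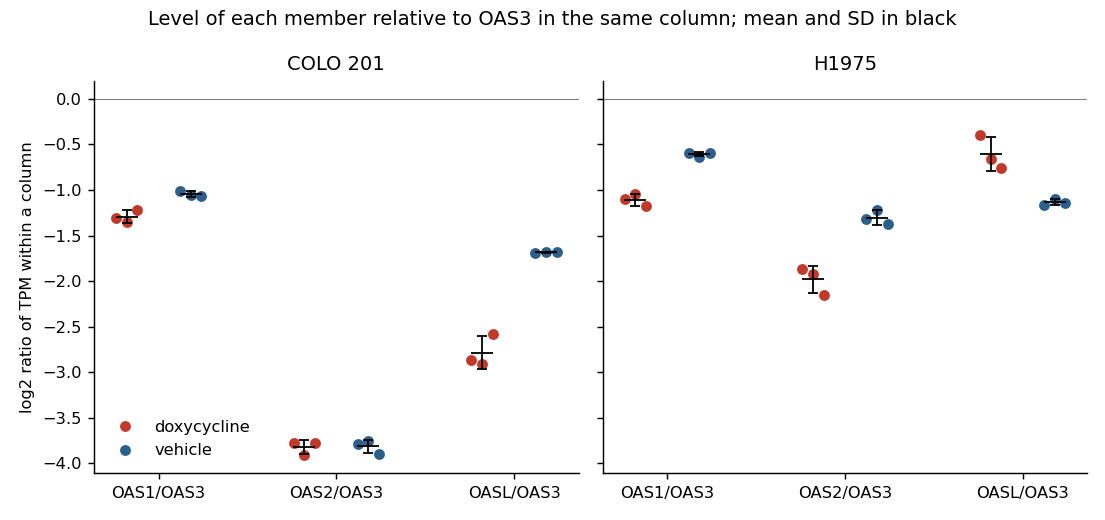
Log2 ratio of each OAS gene to OAS3 within every column of COLO 201 and H1975 (points, doxycycline left of vehicle; mean and SD of 3 columns in black). The OASL to OAS3 ratio is lower in COLO 201 (mean -2.79 with doxycycline, -1.69 with vehicle) and higher in H1975 (mean -0.61 with doxycycline, -1.13 with vehicle).

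Across the 12 columns of COLO 201 and H1975, with the mean of each line taken off, the genes most like OAS1 among 10822 others were IFI6 (Pearson r = 0.997), the iron exporter SLC40A1 (0.995), OAS2 (0.993), ZSCAN31 (0.992) and IFI27 (0.992). OAS3 ranked 10 (0.982) and OASL 742 (0.735). The genes most like OASL were SLC16A4 (0.982), MAPKAPK2 (0.976), the secreted protease inhibitor SERPINA3 (0.976), the glycolytic enzyme PGAM1 (0.973) and TMEM44 (0.973). OAS1 ranked 618 on that list, OAS2 763 and OAS3 1041. The columns share their line, table and treatment, and the H1975 difference that chose the genes dominates these values, so they are a description. MAPKAPK2, for example, changed by -1.05 in COLO 201 and -1.25 in H1975, while IFI6 changed by -0.02 and -3.19.

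The coding genes that were tested around the OAS1-OAS3-OAS2 group showed no change in H1975 of the size seen for the OAS genes. RPH3A and DTX1, the nearest coding genes on either side, were not tested there, nor were RASAL1 and CFAP73. PTPN11 and DDX54 were the nearest tested. Of the 6 coding genes on each side of the group, 8 were tested in H1975 and their changes ran from -0.28 to 0.27. By the limma test 2 were higher and 1 lower (38.5% of all H1975 genes passed, 23.9% higher and 14.6% lower). The higher ones were NAA25 (0.24) and PTPN11 (0.27), named after their values were seen, and the lower one was TRAFD1, a regulator of innate immune signalling (-0.28, adjusted p = 0.0073). In COLO 201, 9 were tested, with 3 higher and 1 lower (45.9% and 15.0% of all genes), from -0.19 to 0.45, and RASAL1 was the highest (0.45, limma adjusted p = 1.1e-04). In RKO, 7 were tested, with 0 higher and 2 lower (2.09% and 16.1% of all genes), TRAFD1 (-0.70, limma adjusted p = 0.012) and NAA25 (-0.56, limma adjusted p = 0.042). Neither passed without vehicle column 1 (adjusted p = 0.070 for TRAFD1, 0.096 for NAA25) or after rescaling (adjusted p = 0.10 and 0.050), but both did with these changes together (-0.25 and -0.22). Around OASL, 10 neighbours were tested in H1975 and ran from -0.34 to 0.19. In COLO 201, where OASL fell, 11 neighbours were tested, with 6 higher and 1 lower, and the higher ones are near the 45.9% of all genes. The lower one was SPPL3, an intramembrane protease (-0.36, limma adjusted p = 3.3e-05).

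**Figure D3:**
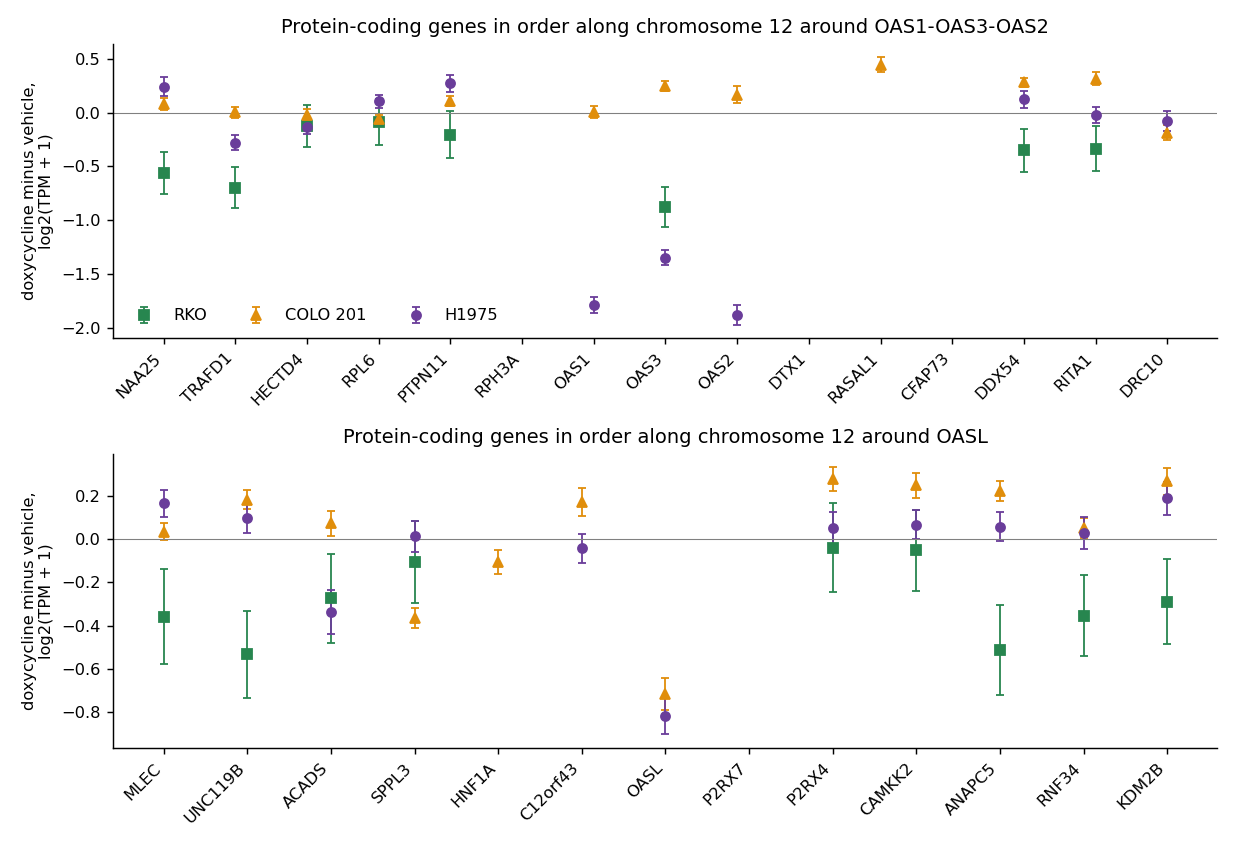
Change with doxycycline, as a difference in log2(TPM + 1) with its SE, for protein-coding genes in their order along chromosome 12 around OAS1-OAS3-OAS2 and around OASL, in RKO (squares), COLO 201 (triangles) and H1975 (circles); genes under the minimum level have no point. The OAS genes in H1975 lie between -1.88 and -0.82, while the neighbours tested in that line lie between -0.34 and 0.27.

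Other genes linked to 2-5A changed by less than any OAS gene in H1975. PDE12, a phosphodiesterase that degrades 2-5A, averaged 30.4 ± 3.17 TPM with doxycycline and 22.6 ± 1.96 TPM with vehicle in H1975, where it rose (0.41 ± 0.09, limma adjusted p = 0.0026). In COLO 201 it averaged 21.7 ± 1.16 TPM with doxycycline and 29.5 ± 1.34 TPM with vehicle, where it fell (-0.42 ± 0.05, limma adjusted p = 2.6e-05). ABCE1, a ribosome recycling factor also tied to this pathway, averaged 198.7 ± 25.9 TPM with doxycycline and 159.6 ± 13.9 TPM with vehicle in H1975 (0.31 ± 0.09, limma adjusted p = 0.015; adjusted p = 0.11 when vehicle column 1 was left out). In all, of 5 genes listed for this pathway, 2 rose and 0 fell by the limma test in H1975, where CNP was lower at an unadjusted p under 0.05 (-0.18, limma adjusted p = 0.080). Rescaled by the median ratio or to shared genes, or without doxycycline column 2, 1 of the 5 fell in H1975. Over all H1975 genes, 23.9% were higher and 14.6% lower. In COLO 201, 4 were tested, CNP (0.22) rose and PDE12 fell, beside 45.9% higher and 15.0% lower over all genes. In RKO 4 were tested and 0 passed, with 2 at an unadjusted p under 0.05, ABCE1 (-0.52) and CNP (-0.41). Without vehicle column 1, 0 passed and 1, ABCE1 (-0.53), had an unadjusted p under 0.05. ABCE1 passed after rescaling (-0.25, limma adjusted p = 0.038). Without vehicle column 1 and rescaled, 1 of the 4 rose and 1 fell, beside 28.3% and 30.5% of all genes.

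Other sensors of foreign nucleic acid fell in part in H1975. Of 16 listed, 15 were tested, 8 fell and 1 rose, with a median change of -0.19, while 14.6% of all H1975 genes fell, 23.9% rose and their median was 0.06. RIGI, the RNA helicase RIG-I, averaged 14.2 ± 1.13 TPM with doxycycline and 31.0 ± 2.00 TPM with vehicle (-1.08, limma adjusted p = 3.0e-07). EIF2AK2, the double-stranded RNA kinase PKR, averaged 69.9 ± 4.99 TPM with doxycycline and 117 ± 13.0 TPM with vehicle (-0.73, limma adjusted p = 1.7e-05). DHX58 (-0.70), TLR3 (-0.60), the RNA-editing enzyme ADAR (-0.38) and IFIH1, the sensor MDA5 (-0.33), also fell. The DNA sensor CGAS rose (0.28), a call lost without doxycycline column 1 (limma adjusted p = 0.054) or vehicle column 1 (limma adjusted p = 0.096). In COLO 201, where 45.9% of all genes rose and 15.0% fell, 14 were tested, 4 rose and 5 fell, with a median of -0.05. After rescaling 1 rose and 8 fell, beside 28.8% and 28.4% of all genes. Without doxycycline column 1, 2 rose and 6 fell, and the shares of all genes are not given for that setting. In the main fit of COLO 201 IFIH1 rose (0.52, limma adjusted p = 3.3e-05), while RIGI (-0.33), EIF2AK2 (-0.30) and the DNA-pathway adaptor STING1 (-1.15) fell. In RKO, 12 were tested and 5 fell, with a median of -0.50, while 16.1% of all RKO genes fell and their median was -0.26. The count was 4 without vehicle column 1, 1 without doxycycline column 1, doxycycline column 3 or vehicle column 2, and 8 without doxycycline column 2. PRKRA, an activator of PKR, was lowest (-0.98, limma adjusted p = 4.1e-04; -1.06 without vehicle column 1), and EIF2AK2 did not pass (-0.46, limma adjusted p = 0.11; -0.48 without vehicle column 1). Without vehicle column 1 and rescaled, 1 rose and 8 fell, beside 28.3% and 30.5% of all genes. EIF2AK2 passed in that setting (-0.19, limma adjusted p = 0.0082).

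Among the factors that carry the interferon signal, IRF9 changed most in H1975. It averaged 42.0 ± 3.23 TPM with doxycycline and 123.3 ± 5.14 TPM with vehicle (-1.53, limma adjusted p = 4.4e-09). Its partner STAT2 (-0.37), the interferon-induced factor IRF7 (-1.14) and the receptor chain IFNGR1 (-0.73) also fell. Of 21 genes listed, 6 fell and 3 rose in H1975, with a median of -0.02, and 1 rose without doxycycline column 1 or vehicle column 1. Over all genes 14.6% fell and 23.9% rose. In COLO 201, 20 were tested, 9 rose and 5 fell. The share that rose is near the 45.9% of all genes, and 15.0% of all genes fell. After rescaling 2 rose and 9 fell, beside 28.8% and 28.4% of all genes. Without rescaling IRF9 fell in COLO 201 (-0.43, limma adjusted p = 4.2e-05), as OASL did, while OAS3 rose. In RKO, 18 were tested, 0 rose and 3 fell, a share near the 16.1% of all genes (2 without vehicle column 1, 1 without doxycycline column 1 or doxycycline column 2), and IFNGR1 was lowest (-0.89, limma adjusted p = 0.0017; -0.77 without vehicle column 1). IRF9 in RKO averaged 1.81 ± 0.247 TPM with doxycycline and 4.84 ± 5.06 TPM with vehicle and did not pass (-0.73, limma adjusted p = 0.099; -0.060 without vehicle column 1). Without vehicle column 1 and rescaled, 4 of the 18 rose and 6 fell, beside 28.3% and 30.5% of all genes. In that setting IRF9 passed as higher (0.14, limma adjusted p = 0.0497). Of 10 interferon genes, 6 were at 0 in every column of RKO and of COLO 201 and 7 in H1975. The highest value was IFNE at 1.07 TPM in H1975, and 0 of them reached the minimum for a test in any line.

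Other interferon-stimulated genes gave the setting for the OAS values. Of 52 listed, without the OAS genes, 48 were tested in H1975, where 43 fell and 0 rose, with a median of -0.85, while 14.6% of all H1975 genes fell and 23.9% rose. IFI6 averaged 139.8 ± 16.4 TPM with doxycycline and 1278 ± 20.4 TPM with vehicle (-3.19, limma adjusted p = 5.9e-12), followed by XAF1 (-2.64), the antiviral GTPase MX1 (-2.30) and IFIT1 (-2.14), which binds viral RNA. Of these 48, 5 were lower by more than OAS2, 7 by more than OAS1, 8 by more than OAS3 and 26 by more than OASL. In COLO 201, 42 were tested, 12 rose and 14 fell, with a median of -0.03, while 45.9% of all COLO 201 genes rose and 15.0% fell. After rescaling 7 rose and 22 fell, beside 28.8% and 28.4% of all genes. ISG15, a ubiquitin-like modifier, rose (0.81, limma adjusted p = 2.1e-07), as did UBE2L6 (0.69), the enzyme that conjugates it, while DDX60 (-1.04), EPSTI1 (-0.73), IFIT1 (-0.62) and MX1 (-0.40) fell. Of 41 tested in both lines, 12 fell in both, 10 fell in H1975 and rose in COLO 201, and 14 fell in H1975 and did not pass in COLO 201. In RKO, where 2.09% of all genes rose and 16.1% fell, 34 were tested, IFI27 rose (0.72), and IFITM1 (-1.39) and APOL6 (-0.90) fell, with a median of -0.15. IFITM1 had 12.7 TPM in vehicle column 1 and a mean of 0.584 TPM in the other 5 columns, and APOL6 had 4.81 and 0.870 TPM, so without that column neither reached the minimum for a test. With single columns left out, 0 to 1 rose and 0 to 9 fell, 0 without doxycycline column 1 and 9 without vehicle column 3. Without vehicle column 1, 28 were tested, and IFI27 did not pass (0.50, limma adjusted p = 0.092). ISG20 rose (0.49) and SAMD9 fell (-0.51) there, both named after their values were seen. With rescaling as well 17 rose and 1 fell, beside 28.3% and 30.5% of all genes.

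**Figure D4:**
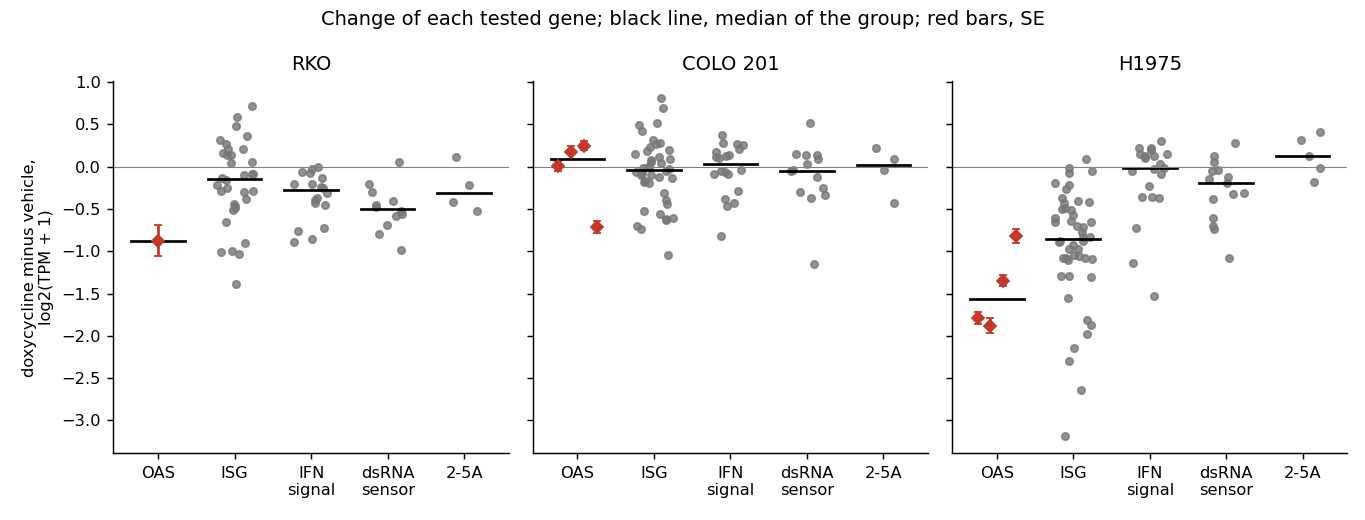
Change with doxycycline of each tested gene in RKO, COLO 201 and H1975, as a difference in log2(TPM + 1), for the OAS genes (red, with SE), other interferon-stimulated genes (ISG), interferon signalling factors (IFN signal), nucleic acid sensors (dsRNA sensor) and genes of the 2-5A pathway, with the group median as a black line. In H1975 the 4 OAS genes lie between -1.88 and -0.82 and the median of the other interferon-stimulated genes at -0.85, while in COLO 201 both groups spread to either side of 0 and in RKO a single OAS gene, OAS3, was tested.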

How the data were processed

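The cells' total RNA had been made into stranded TruSeq mRNA libraries, per the labels' protocols, and STAR, DESeq2 and GRCh38 are named without versions in the submitters' processing notes. The authors deposited TPM per gene, 1 table of 6 columns per line. The agent label is the same for all 18 samples, so they were grouped by line and the arm was read from column headings, which mark doxycycline with plus. In RKO the other columns are headed DOX with no sign and were read as vehicle. Column numbers could not be tied to sample titles, and replicates may be technical. In COLO 201, 28 date-like or repeated names were left out.

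Genes whose TPM averaged at least 1 in a line were tested with limma 3.58.1 (R 4.3.3) on log2(TPM + 1) with a variance trend, two-sided, with Benjamini-Hochberg adjustment over all genes of a line, and a call is an adjusted p under 0.05. The procedure was tested on simulated data. Rescaling divides each column by the median of its ratios to the genes' geometric means.

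The OAS genes and all gene lists (2-5A pathway, nucleic acid sensors, interferon signalling, interferon genes, interferon-stimulated genes, cell type markers) were chosen with earlier results of these data known. Genes named are the OAS genes, ABCE1, PDE12, STAT2, IRF9, IRF1, IRF7, IFIH1, RIGI, EIF2AK2, ADAR, MX1, IFIT1 and ISG15, up to 4 more per list and line with the smallest adjusted p, the 5 genes most like OAS1 and OASL, and MUC1. Symbols were updated through RefSeq synonyms. A planned comparison of the protein sequences was not made, and some genes of the planned lists are not reported here.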

Additional observations from a re-analysis of the deposited data

Results flagged for a closer look

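OAS3 changed in opposite directions in COLO 201 and RKO, a difference of 1.13 on the log2(TPM + 1) scale that passed the joint test. The other results below are listed because every doxycycline column of one line lay above its vehicle columns and every one of the other line lay below. These differences between lines were not tested. Such a lack of overlap was common over all tested genes. In COLO 201 it held for 48.5% of genes as higher and 16.6% as lower. As lower it held for 32.4% in RKO and 18.4% in H1975. For H1975 minus COLO 201 the difference in change was -2.05 for OAS2, -1.60 for OAS3, -1.89 for ISG15, -0.84 for IFIH1, -0.61 for IRF1, -0.51 for ADAR, -0.50 for STAT2, 0.53 for CGAS and 0.83 for PDE12. For COLO 201 minus RKO it was 1.11 for IRF1 and 0.66 for ADAR. For H1975 minus RKO it was 0.83 for ABCE1 and -2.70 for IFI27. The H1975 contrast chose the OAS genes, so the OAS2 and OAS3 entries with H1975 are a description. Some changes behind these differences did not pass the limma test within their line. They were OAS2 in COLO 201 (adjusted p = 0.075) and, in RKO, ADAR (adjusted p = 0.088) and ABCE1 (adjusted p = 0.086). Each RKO change in this list includes vehicle column 1. Without that column the RKO change was 0.50 for IFI27 (0.72 with it) and -0.53 for ABCE1 (-0.52 with it). IRF1 in RKO averaged 1.19 ± 0.159 TPM with doxycycline and 3.28 ± 2.13 TPM with vehicle (SD, n = 3 each).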

How the results depend on the processing

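Alternatives tried were a pseudocount of 0.1 or 5, no minimum TPM or a minimum of 5, rescaling by the median ratio or to the genes shared by the tables, no trend, a replicate block and leaving out each column. In COLO 201, OASL fell and OAS3 rose under every alternative run, with -0.78 to -0.65 and 0.21 to 0.27 when a column was left out. OAS3 in RKO stayed lower, -0.99 to -0.74 (adjusted p 1.1e-04 to 0.037) without a column, and lost its call with no minimum TPM (-0.87, adjusted p = 0.069). OAS1 in COLO 201, which passed nowhere, turned to -0.10 by the median ratio and -0.053 by shared genes, and ran from -0.022 to 0.054 without a column. OAS2 in COLO 201 was 0.088 by the median ratio (adjusted p = 0.31), 0.24 and 0.072 with pseudocounts of 0.1 and 5, and 0.13 to 0.21 without a column. It passed with no trend (0.17, adjusted p = 0.026) and without doxycycline column 2 (adjusted p = 0.048). In H1975, pseudocounts of 0.1 and 5 gave OAS1 -1.88 and -1.48 and OAS2 -2.04 and -1.41. A pseudocount of 5 gave OAS3 -1.21 and OASL -0.68, and OAS3 was -1.41 by either rescaling. The difference between COLO 201 and RKO for OAS3 was 0.72 to 1.32 and passed under each alternative run.

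Genes called in RKO numbered 1915, but 28 with no minimum, 2932 by the median ratio, 6043 by the median ratio without vehicle column 1, and 595 to 2410 without a column (595 without doxycycline column 1, 994 without doxycycline column 3). They numbered 4759 in H1975 (3075 to 5206, the lowest without vehicle column 1) and 7052 in COLO 201 (6077 to 7202). Same-numbered columns did not deviate together throughout (correlations of -0.42 to 0.29), so the numbers were not taken as pairs. For columns 1, 2 and 3 the correlations were 0.29, 0.27 and -0.012 in RKO and -0.054, 0.15 and 0.28 in COLO 201. In H1975 they were 0.16, -0.42 and -0.35. The replicate block gave 2415, 7759 and 3738 calls in RKO, COLO 201 and H1975, and OAS3 in RKO kept its call (adjusted p = 0.016). Changes of direction among other named genes, none of which had passed the test, were 16. They were in RKO PDE12 (-0.037 to 0.27 without a column), IFIH1 (-0.15 to 0.34), RIGI (0.13), IRF9 (0.14), STAT2 (0.13) and MX1 (0.041) without vehicle column 1 and rescaled, STAT2 by median ratio (0.19), shared genes (0.20) and without a column (-0.18 to 0.061), and MX1 by median ratio (0.020) and shared genes (0.015), and in COLO 201 ABCE1 without a column (-0.11 to 0.037). The cause was not tested. In 122 settings another named gene lost its call and in 22 one gained it. Depth is unknown, and levels under 1 TPM in RKO cannot show a change here.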
